A study of Mus musculus with 6 samples.

Results

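The genes described here encode the granule proteins of eosinophils, the enzyme that makes histamine and the IgE-binding chain of the high-affinity IgE receptor. They are Epx, Prg2, Prg3, Ear1, Ear2, Ear6, Hdc and Fcer1a, 8 of the 55471 gene IDs in the deposited table of transcript abundance, and they were chosen by gene symbol. Of these, 7 reached 1 TPM (an abundance corrected for transcript length and scaled to one fixed total per library) in 3 or more of the 6 libraries and were tested, and Ear1 fell below that filter. RNA sequencing compared mouse granulocyte-monocyte-lymphoid progenitors (GMLPs) of L28BME mice, whose genotype combined LIN28B with MLL-ENL, with those of ME mice, whose genotype was MLL-ENL alone. MLL-ENL is a leukaemia fusion oncogene, and LIN28B binds RNA and is made in fetal blood progenitors. The cells of both groups were sorted from bone marrow, and all were cultured for 3 days with DOX (doxycycline) before RNA was isolated. By common usage, though the labels do not list the markers, such cells are lineage-negative, positive for Kit, Sca1 and CD48 and negative for CD150. Each group had 3 libraries. The labels give no ages of the mice, no promoter for either transgene and no word on whether replicates were separate animals. The spread behind each p-value is therefore that among these 6 libraries and could be technical.

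Eosinophils are granulocytes whose large granules hold cationic proteins that are toxic to parasites and to host tissue. Basophils and mast cells carry the high-affinity IgE receptor on their surface and store histamine, which they release when antigen cross-links the bound IgE. All of these cells arise from myeloid progenitors of the bone marrow, and granule protein genes are switched on there before mature cells appear.

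Lin28b, the gene that defines the contrast, was at 11.2, 11.7 and 11.9 TPM in L28BME libraries and was listed at 0 in the 3 ME libraries. Of the genes for those surface markers, Kit was at 73.2 to 88.4 TPM in L28BME and 76.5 to 106 TPM in ME, and Cd48 was at 226 to 231 TPM in L28BME and 291 to 302 TPM in ME. Ly6a, which encodes Sca1, was at 1.38 to 3.18 TPM in L28BME and 9.64 to 11.8 TPM in ME after the culture. Slamf1, which encodes CD150, stayed under 1 TPM in all 6 libraries. Because TPM keep no read depth, no counting interval can be given. Among 13348 tested genes, 14.9% were called, 8.28% as higher and 6.6% as lower in L28BME (limma fitted to log2(TPM + 1) of all tested genes, with p-values adjusted by Benjamini-Hochberg and a threshold of 0.05). These shares stand beside the counts called in every gene list below. Counts at an unadjusted p under 0.05 stand beside 29.6% of all tested genes, in either direction.

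Of the 7 tested members, 2 rose in L28BME cells, none was called lower, and 5 were not called, beside 8.28% of all tested genes higher and 6.6% lower. Epx and Prg3, both granule protein genes, were the genes that rose. At an unadjusted p under 0.05, 5 members lay higher and 1 lower, against 29.6% of all tested genes at that level in either direction. L28BME and ME values were fully separate for 6 of the 7 tested members, against 36.7% of all tested genes. These shares cannot be set against a chance expectation, since the members were chosen with earlier results of these data known. In bulk RNA, a different number of cells of one type and a different amount of RNA per cell cannot be told apart.

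**Figure D1:**
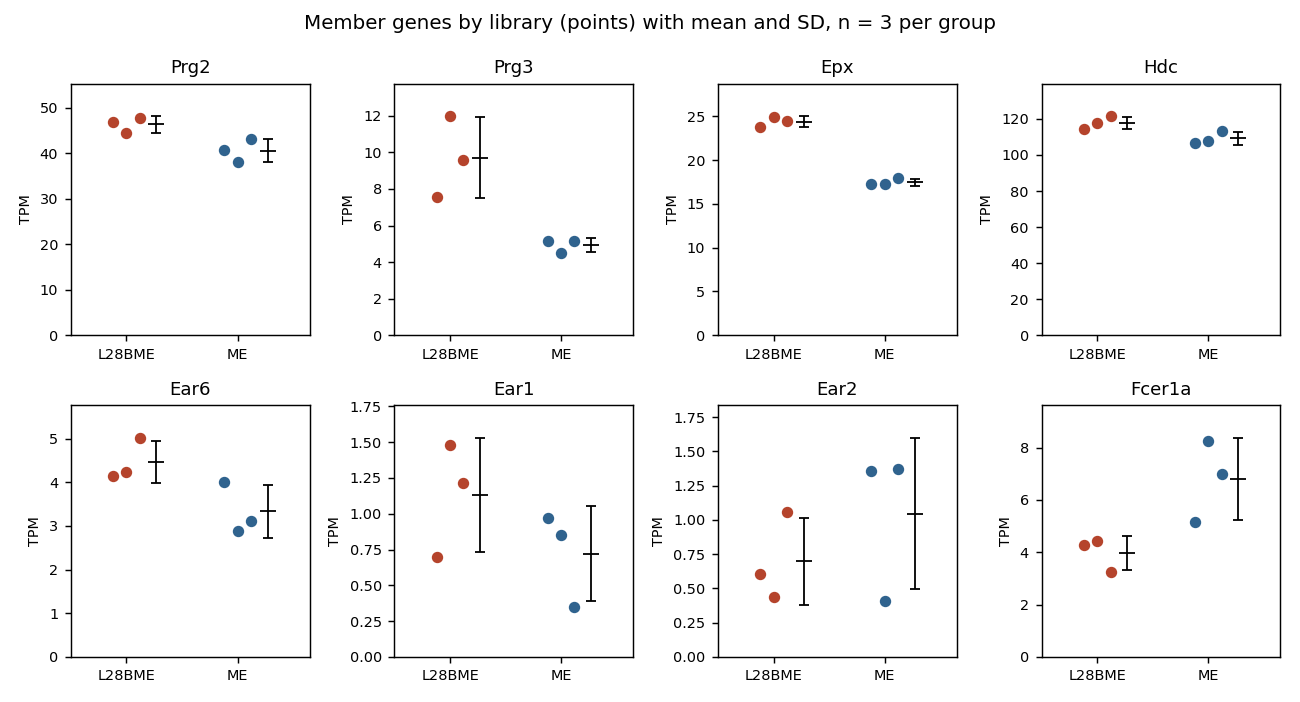
TPM of each of the 8 genes (vertical axes start at 0, a scale of its own per panel) in the 3 L28BME and the 3 ME libraries. Points are libraries, and the bar beside them is the mean with its SD. The L28BME points lie above all ME points for Prg2, Prg3, Epx, Hdc and Ear6 and below them for Fcer1a, and they overlap for Ear1 and Ear2.

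**Figure D2:**
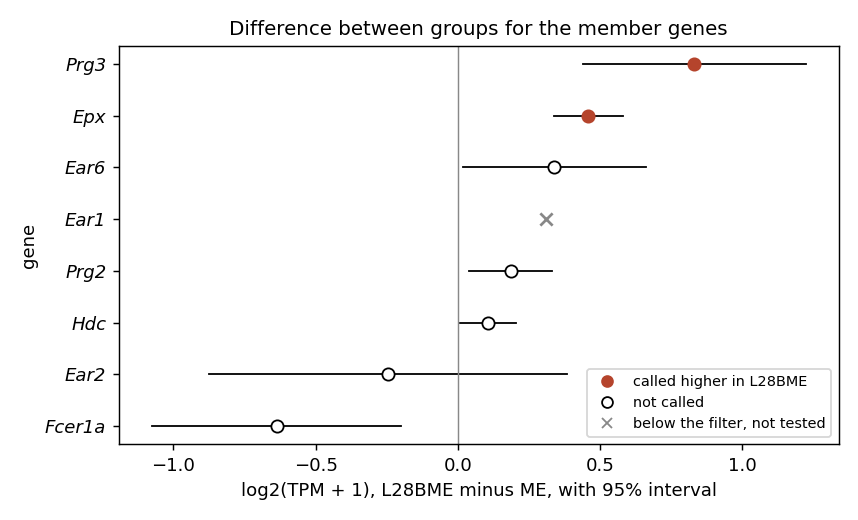
Difference in log2(TPM + 1), L28BME minus ME, for each gene with its 95% limma interval. Filled points mark Prg3 and Epx, the genes called higher at log2 differences of 0.83 and 0.46, open points were not called, and the cross is Ear1, which was not tested.

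Epx encodes eosinophil peroxidase, a haem enzyme of the granule matrix that makes oxidising halogen compounds. It lies on chromosome 11 (ENSMUSG00000052234, 87864000 to 87875536 on the minus strand of GRCm38). Its level was 23.8, 24.9 and 24.5 TPM in L28BME libraries and 17.2, 17.3 and 17.9 TPM in ME libraries. The lowest L28BME library thus lay above the highest ME library by several times the spread within a group. The means were 24.4 ± 0.589 TPM in L28BME and 17.5 ± 0.404 TPM in ME (SD, n = 3 each), a log2 difference of 0.46 (SE 0.050, 95% interval 0.34 to 0.58, limma adjusted p = 0.00317). It stayed called when any 1 of the 6 libraries was left out (limma adjusted p = 0.0137 to 0.0176). Tested against a minimum change of 1.2-fold, it was not called (limma adjusted p = 0.1).

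Prg2 encodes major basic protein, which forms the crystalline core of the eosinophil granule, and Prg3 encodes its homologue. The genes lie side by side on the plus strand of chromosome 2, Prg2 (ENSMUSG00000027073) at 84980461 to 84983632 and Prg3 (ENSMUSG00000027072) at 84988215 to 84993886, with 4582 bases between them. Prg2 was at 46.8, 44.3 and 47.8 TPM in L28BME libraries and 40.7, 38.0 and 43.1 TPM in ME libraries. The groups did not overlap, but they lay close to each other. The means were 46.3 ± 1.77 TPM in L28BME and 40.6 ± 2.53 TPM in ME (SD, n = 3 each), and the log2 difference of 0.19 (SE 0.060, 95% interval 0.04 to 0.33) was not called (limma adjusted p = 0.0948).

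Prg3 was less abundant than Prg2 in every library. It was at 7.57, 12.0 and 9.61 TPM in L28BME libraries and 5.18, 4.49 and 5.16 TPM in ME libraries. All L28BME libraries were higher than all ME libraries, and they were also more widely spread. The means were 9.72 ± 2.20 TPM in L28BME and 4.94 ± 0.395 TPM in ME (SD, n = 3 each), a log2 difference of 0.83 (SE 0.16, 95% interval 0.44 to 1.22, limma adjusted p = 0.0220). The call was lost without L28BME replicate 3 or any 1 ME library (limma adjusted p = 0.0602 to 0.0741), and also against a minimum change of 1.2-fold (limma adjusted p = 0.144).

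Within each library, Prg2 was 6.18, 3.70 and 4.97 times as abundant as Prg3 in L28BME and 7.85, 8.47 and 8.34 times in ME. The ratio was thus lower in every L28BME library. An exact two-sided permutation test of the log2 ratio gave p = 0.1, the smallest that 3 libraries against 3 allow. The ratio of Prg2 to Epx averaged 1.90 ± 0.105 in L28BME and 2.32 ± 0.106 in ME (SD, n = 3 each), also with no overlap and with the same exact permutation p = 0.1. These pairs of genes were compared after their values were seen. Summed, Epx, Prg2 and Prg3 made up 78.1, 81.2 and 81.9 TPM in L28BME libraries and 63.0, 59.8 and 66.2 TPM in ME libraries. With Prg2 and Prg3 added into 1 feature, the pair passed the test (log2 difference 0.29, SE 0.057, limma adjusted p = 0.0220).

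**Figure D3:**
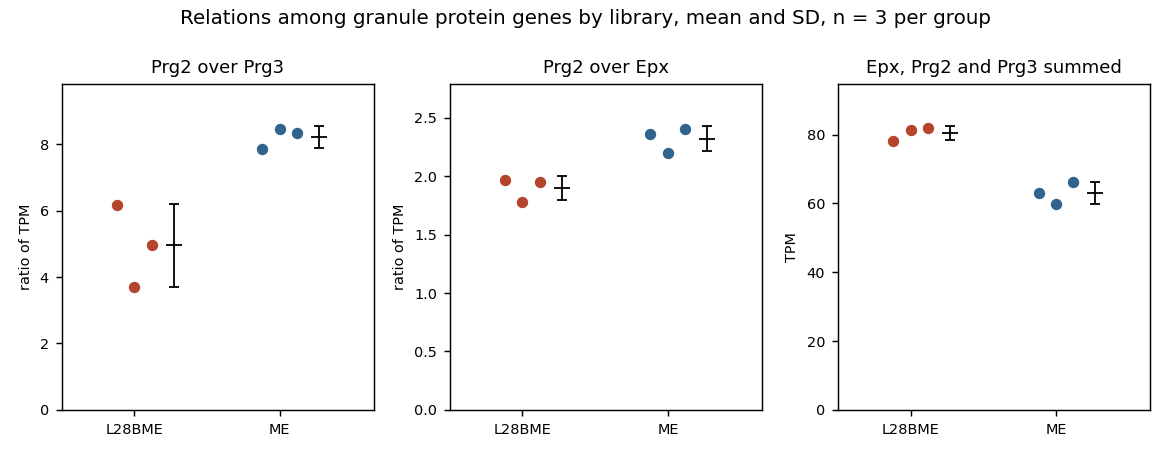
Ratio of the TPM of Prg2 to that of Prg3, ratio of Prg2 to Epx, and the summed TPM of Epx, Prg2 and Prg3, by library (points) with mean and SD, n = 3 per group. Both ratios are lower in every L28BME library (1.90 against 2.32 on average for Prg2 over Epx), and the sum is higher (80.4 against 63.0 TPM).

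Sequences at the starts of genes were read because granule protein genes are known targets of GATA factors, which bind a GATA core. RefSeq windows on GRCm38.p6, from 250 bases before to 50 bases after the annotated start, were found for 7 of the 8 genes, all but Prg2. The motif GATAA, read on both strands, occurred in 5 of these 7 (Prg3, Ear1, Ear2, Ear6 and Fcer1a) and in 25.4% of all 32851 such windows. TATAAA occurred in 2 of 7 (Epx and Fcer1a) and in 13.6% of all windows, GAGGAA in 1 of 7 and 28.3%, and TTGCNNAA in 3 of 7 and 10.8%. The Ear windows are near-copies of each other (97% identical for Ear1 and Ear2, 80.7% for Ear1 and Ear6 and 79% for Ear2 and Ear6), and each holds its GATAA match 2 to 6 bases after the start. The matches of these 3 genes to GATAA, and those of Ear1 and Ear2 to TTGCNNAA, are therefore not separate observations to set beside the share of all windows. The windows of the 2 genes that rose and of Fcer1a, which was lower in every L28BME library, are printed 5′ to 3′ with matches to GATAA or TATAAA, on either strand, in capitals. They show that Prg3 holds 2 GATAA matches, at positions -123 and -111 from the start, and that Epx holds none. The windows are chr2:84987965-84988264 on the plus strand for Prg3, chr11:87875487-87875786 on the minus strand for Epx and chr1:173227180-173227479 on the minus strand for Fcer1a. A match to these letters is a description of the window and does not show binding.
Prg3: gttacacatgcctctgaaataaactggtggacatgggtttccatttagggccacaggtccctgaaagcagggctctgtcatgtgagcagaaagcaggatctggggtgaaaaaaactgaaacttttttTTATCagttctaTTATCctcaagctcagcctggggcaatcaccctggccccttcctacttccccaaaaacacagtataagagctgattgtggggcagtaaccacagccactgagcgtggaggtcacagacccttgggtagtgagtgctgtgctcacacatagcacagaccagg
Epx: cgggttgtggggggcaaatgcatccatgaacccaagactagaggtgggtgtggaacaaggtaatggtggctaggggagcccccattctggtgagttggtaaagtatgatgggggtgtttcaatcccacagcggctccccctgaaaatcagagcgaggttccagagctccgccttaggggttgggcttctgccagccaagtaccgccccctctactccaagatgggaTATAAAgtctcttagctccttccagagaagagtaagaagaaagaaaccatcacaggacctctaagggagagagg
Fcer1a: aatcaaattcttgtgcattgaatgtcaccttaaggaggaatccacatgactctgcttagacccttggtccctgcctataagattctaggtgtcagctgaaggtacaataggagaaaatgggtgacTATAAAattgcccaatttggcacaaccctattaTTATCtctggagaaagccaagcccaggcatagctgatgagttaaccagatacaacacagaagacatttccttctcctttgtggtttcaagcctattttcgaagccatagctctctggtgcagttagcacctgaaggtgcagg

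The Ear genes encode eosinophil-associated ribonucleases, rodent relatives of the human eosinophil cationic protein and eosinophil-derived neurotoxin. The members lie on chromosome 14, Ear1 (ENSMUSG00000072601) at 43818765 to 43875517 on the minus strand, Ear2 (ENSMUSG00000072596) at 44102654 to 44103534 on the plus strand and Ear6 (ENSMUSG00000062148) at 51853699 to 51854643 on the plus strand. They are young duplicates, so their letters decide how far reads can be assigned. The coding sequences of Ear1 and Ear2 were 95.1% identical, those of Ear1 and Ear6 87.4% and those of Ear2 and Ear6 87.7%. The first 150 coding bases are printed from the GENCODE transcripts, at chr14:43819260-43819409 (minus strand) for Ear1, chr14:44102887-44103036 (plus strand) for Ear2 and chr14:51853998-51854147 (plus strand) for Ear6. Capitals mark the 19 positions at which the 3 genes are not all the same, most of them a base particular to Ear6.
Ear1: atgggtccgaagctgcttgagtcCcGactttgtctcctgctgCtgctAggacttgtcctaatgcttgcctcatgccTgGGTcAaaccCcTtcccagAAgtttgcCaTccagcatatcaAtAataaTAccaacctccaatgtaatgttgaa
Ear2: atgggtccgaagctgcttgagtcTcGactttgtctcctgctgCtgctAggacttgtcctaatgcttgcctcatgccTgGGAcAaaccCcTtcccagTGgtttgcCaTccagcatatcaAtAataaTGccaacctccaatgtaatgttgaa
Ear6: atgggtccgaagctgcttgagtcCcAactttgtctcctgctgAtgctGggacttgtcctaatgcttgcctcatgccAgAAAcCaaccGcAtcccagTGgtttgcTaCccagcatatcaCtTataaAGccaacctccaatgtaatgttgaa

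Of all 50-base windows in the transcripts of Ear1, 57.4% also occurred in transcripts of another gene, such as Ear-ps9, Ear2 and Ear10, and for Ear2 the share was 41.5%. For Ear6 it was 0.954%, and for Prg2, Prg3, Epx and Fcer1a it was 0. Neither the read length nor the handling of reads with several matches is stated, so the split of reads between Ear1 and Ear2 is uncertain, while Ear6 is less affected. The pseudogene Ear-ps9, which shares exonic bases with Ear1 on the same strand, was at 0.280 TPM in L28BME replicate 1 and listed at 0 elsewhere.

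Ear6 was the most abundant of the 3 in every library. It was at 4.16, 4.23 and 5.01 TPM in L28BME libraries and 4.01, 2.88 and 3.11 TPM in ME libraries. The groups did not overlap, although ME replicate 1 lay just under the lowest L28BME library. The means were 4.47 ± 0.475 TPM in L28BME and 3.33 ± 0.601 TPM in ME (SD, n = 3 each), and the log2 difference of 0.34 (SE 0.13, 95% interval 0.02 to 0.66) did not pass (limma adjusted p = 0.149).

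Ear1 was at 0.699, 1.48 and 1.21 TPM in L28BME libraries and 0.968, 0.850 and 0.346 TPM in ME libraries. Ear2 was at 0.603, 0.440 and 1.05 TPM in L28BME libraries and 1.36, 0.411 and 1.37 TPM in ME libraries. For both genes the groups overlapped, and most values lay near 1 TPM. Ear2 passed the filter with 3 libraries just above 1 TPM and was not called (log2 difference -0.24, SE 0.26, 95% interval -0.87 to 0.38, limma adjusted p = 0.581). Added together, Ear1 and Ear2 averaged 1.83 ± 0.489 TPM in L28BME and 1.77 ± 0.533 TPM in ME (SD, n = 3 each). With all Ear and Rnase2 paralogs summed into 1 feature, the log2 difference was 0.27 (SE 0.16, limma adjusted p = 0.337).

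Ear10, Ear14, Rnase2a and Rnase2b, further eosinophil ribonuclease genes, were listed at 0 in every library. In the list of 15 genes of the ribonuclease A family, which holds the 3 Ear members, 6 were tested, 2 rose and none was called lower, with 4 higher and 0 lower at an unadjusted p under 0.05. The median log2 difference of the tested genes was 0.34, beside 0.0033 over all tested genes. Rnase6, a ribonuclease of phagocytes with antibacterial activity, was at 4.50, 9.11 and 4.57 TPM in L28BME libraries and 1.89, 2.20 and 1.66 TPM in ME libraries (log2 difference 1.22, SE 0.26, limma adjusted p = 0.0282). Rnase4, a ribonuclease expressed in many tissues, was at 9.11, 10.6 and 10.7 TPM in L28BME libraries and 6.40, 7.71 and 6.88 TPM in ME libraries (log2 difference 0.48, limma adjusted p = 0.0273). All L28BME libraries lay above all ME libraries for both genes. The call of Rnase6 was lost without any 1 ME library, and that of Rnase4 without ME replicate 1 or 3 or L28BME replicate 2 or 3.

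Hdc encodes histidine decarboxylase, which makes histamine from histidine, and was the most abundant of the 8 genes in every library. It lies on chromosome 2 (ENSMUSG00000027360, 126593667 to 126619299 on the minus strand). Its level was 114, 118 and 121 TPM in L28BME libraries and 107, 108 and 113 TPM in ME libraries, above that of 87% of tested genes by the mean over all 6. The groups did not overlap, but the gap between them was smaller than the range within either. The means were 118 ± 3.59 TPM in L28BME and 109 ± 3.59 TPM in ME (SD, n = 3 each), and the log2 difference of 0.11 (SE 0.041, 95% interval 0.0087 to 0.21) did not pass (limma adjusted p = 0.140).

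Of 10 listed genes of histamine handling, Hdc among them, 5 were tested, 1 was lower and none was called higher, with 1 higher and 2 lower at an unadjusted p under 0.05. The median log2 difference was -0.32, beside 0.0033 over all tested genes. With 5 genes, that median is the value of Maob alone, which was not called (limma adjusted p = 0.393). Maob was at 0.193 to 1.03 TPM in L28BME and 0.858 to 1.22 TPM in ME, with overlapping groups. The gene called lower was Hrh2, the histamine H2 receptor, at 7.49, 7.40 and 7.51 TPM in L28BME libraries and 9.24, 10.6 and 10.2 TPM in ME libraries (log2 difference -0.38, SE 0.074, limma adjusted p = 0.0231). The L28BME libraries were nearly identical and lay below every ME library. That call was kept only without ME replicate 1, and adjusted p was 0.0314 to 0.0786 over the fits without 1 library. Slc18a2, the transporter that loads histamine into granules, was at 32.0 to 33.8 TPM in L28BME and 33.7 to 35.6 TPM in ME and was not called (limma adjusted p = 0.387). Hnmt, which inactivates histamine, was at 1.25, 0.758 and 1.42 TPM in L28BME libraries and 3.42, 1.77 and 2.10 TPM in ME libraries and was not called (limma adjusted p = 0.104).

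Fcer1a encodes the alpha chain of the high-affinity IgE receptor, the chain that binds IgE. It lies on chromosome 1 (ENSMUSG00000005339, 173221284 to 173227214 on the minus strand). Its level was 4.28, 4.42 and 3.24 TPM in L28BME libraries and 5.17, 8.27 and 6.98 TPM in ME libraries. Every L28BME library lay below every ME library, and the ME libraries were widely spread. The means were 3.98 ± 0.642 TPM in L28BME and 6.81 ± 1.56 TPM in ME (SD, n = 3 each), and the log2 difference of -0.64 (SE 0.18, 95% interval -1.08 to -0.20) did not pass (limma adjusted p = 0.0685). Without ME replicate 1, the lowest ME library, it was called lower (limma adjusted p = 0.0416).

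The genes for the partner chains of the receptor were not called. Ms4a2, which encodes the beta chain, was at 37.6, 41.5 and 47.0 TPM in L28BME libraries and 32.6, 44.5 and 52.9 TPM in ME libraries (log2 difference -0.02, 95% interval -0.46 to 0.42, limma adjusted p = 0.951). Fcer1g, the gamma chain shared with other Fc receptors, was at 416 to 439 TPM in L28BME and 428 to 443 TPM in ME (limma adjusted p = 0.703). The groups overlapped for both genes. Whether the difference of Fcer1a itself exceeded that of its partners was not tested.

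In the list of 14 genes of the receptor and its signalling, all were tested, 2 rose, 1 fell and 11 were not called, with a median log2 difference of -0.022. Plcg2, a phospholipase C of immune cells, was at 195, 185 and 193 TPM in L28BME libraries and 142, 140 and 140 TPM in ME libraries (log2 difference 0.44, SE 0.032, limma adjusted p = 9.02e-04). Fyn, a SRC family kinase, was at 56.6, 54.1 and 52.7 TPM in L28BME libraries and 29.4, 34.1 and 36.1 TPM in ME libraries (log2 difference 0.70, limma adjusted p = 0.00399). Lcp2, the adaptor SLP-76, was at 55.1, 56.2 and 54.8 TPM in L28BME libraries and 65.5, 67.0 and 65.3 TPM in ME libraries (log2 difference -0.25, limma adjusted p = 0.00712). These genes also act downstream of other receptors, and their calls held without any 1 library.

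**Figure D4:**
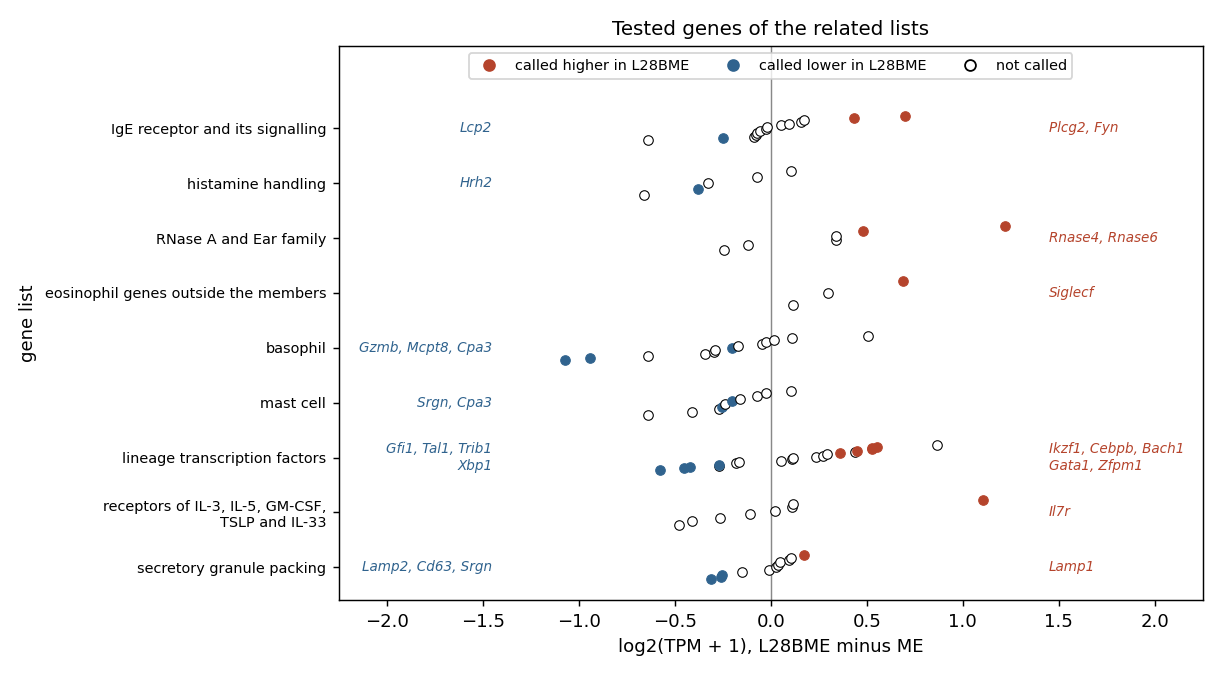
Difference in log2(TPM + 1), L28BME minus ME, of the tested genes of 9 related lists, 1 point per gene with points of a list offset vertically to separate them. Filled points were called, with the names of genes called lower at the left and of those called higher at the right. The basophil list has 3 genes called lower and none called higher, and the ribonuclease list has 2 called higher.

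Genes of eosinophils outside the members were unevenly present. Ccr3, the eotaxin receptor, was listed at 0 in every library. Il5ra, the receptor chain for the eosinophil growth factor IL-5, was at 0.154 to 0.201 TPM in L28BME and 0.134 to 0.235 TPM in ME. Siglecf, a sialic acid-binding receptor that marks mouse eosinophils, rose, at 12.8, 12.7 and 11.1 TPM in L28BME libraries and 6.46, 7.64 and 7.49 TPM in ME libraries (log2 difference 0.69, SE 0.093, limma adjusted p = 0.00657), and its call held without any 1 library. Of the 12 listed genes, 3 were tested, 1 rose and none was called lower, also with 1 and 0 at an unadjusted p under 0.05, and 6 were at 0 throughout. The median log2 difference of these 3 tested genes was 0.30, which is the value of Adgre1 alone. The summed level of the list was 42.1 to 45.8 TPM in L28BME and 33.8 to 36.1 TPM in ME. Cebpe, a C/EBP factor required for granule protein genes, accounted for much of that level, at 21.4 to 28.3 TPM in L28BME and 20.3 to 23.2 TPM in ME, and was not called (limma adjusted p = 0.554). Adgre1, which encodes F4/80 and is also a macrophage gene, was at 5.87, 8.87 and 6.15 TPM in L28BME libraries and 5.57, 5.49 and 5.08 TPM in ME libraries. Its L28BME values all lay above its ME values, and it was not called (limma adjusted p = 0.251). The part of these genes in the results for Epx and Prg3 was not tested.

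The genes called on the basophil and mast cell lists were all lower in L28BME, and Cpa3 was called on both. Of 14 basophil genes, 13 were tested, 3 fell and 10 were not called. None was called higher, and none lay higher at an unadjusted p under 0.05. The median log2 difference was -0.20, beside 0.0033 over all tested genes. Mcpt8, the basophil protease used to mark that lineage in mice, was at 62.1, 64.9 and 67.0 TPM in L28BME libraries and 120, 131 and 124 TPM in ME libraries (limma adjusted p = 3.41e-04). Gzmb, granzyme B, was at 9.37 to 10.8 TPM in L28BME and 21.05 to 24.7 TPM in ME (limma adjusted p = 0.00126). Cpa3, a carboxypeptidase of mast cells and basophils, was at 202 to 215 TPM in L28BME and 235 to 243 TPM in ME (limma adjusted p = 0.0150), and its call was lost without ME replicate 2 or L28BME replicate 2. Prss34, another basophil protease, was at 19.0, 16.7 and 20.3 TPM in L28BME libraries and 22.2, 23.9 and 23.2 TPM in ME libraries and was not called (limma adjusted p = 0.0634). Not all listed genes lay lower. Il4, Il3ra and Ccl3 had log2 differences of 0.51, 0.11 and 0.020, with overlapping groups, and were not called. At an unadjusted p under 0.05, 5 of the 13 tested genes lay lower.

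The summed level of the basophil list, which holds Fcer1a, was 624 to 626 TPM in L28BME and 713 to 753 TPM in ME. That of the mast cell list, which holds Hdc and Fcer1a, was 1781 to 1850 TPM in L28BME and 2092 to 2137 TPM in ME. Srgn, serglycin, the proteoglycan to which granule proteins bind, made up most of the mast cell sum and fell, at 1273 to 1331 TPM in L28BME and 1530 to 1586 TPM in ME (limma adjusted p = 0.00317). Of 17 listed mast cell genes, 16 were matched and 10 tested, 2 fell and none was called higher, with 1 higher at an unadjusted p under 0.05 and a median log2 difference of -0.22. Of the genes of mature mast cells, Mcpt4, Tpsab1, Mrgprb1 and Mrgprb2 were listed at 0 in every library. The tryptase gene Tpsg1 was at 2.246 to 2.54 TPM in L28BME and 2.46 to 3.28 TPM in ME and was not called (limma adjusted p = 0.413). Below the filter, the tryptase gene Tpsb2 was at 0.281, 0.165 and 0.335 TPM in L28BME libraries and at 0.122, 0 and 0 TPM in ME libraries, higher in every L28BME library, and Cma1, mast cell chymase, was at 0 to 0.302 TPM in L28BME and 0 to 0.0755 TPM in ME. The part of these lists in the results for Fcer1a and Hdc was not tested.

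Factors that specify these lineages moved both ways. Of 20 transcription factor genes, all tested, 5 rose, 4 fell and 11 were not called, and the median log2 difference was 0.17. Gata1, which drives eosinophil, mast cell, erythroid and megakaryocyte fates, rose, at 17.0, 16.3 and 20.4 TPM in L28BME libraries and 11.4, 11.9 and 12.98 TPM in ME libraries (log2 difference 0.53, SE 0.10, limma adjusted p = 0.0209). Its call was lost without L28BME replicate 1 or ME replicate 1 or 2. Gata2 was at 68.5, 59.1 and 67.9 TPM in L28BME libraries and 51.9, 49.8 and 59.9 TPM in ME libraries, with overlapping groups, and was not called (limma adjusted p = 0.105). Cebpa was at 17.4, 5.93 and 4.67 TPM in L28BME libraries and 4.18, 4.29 and 3.34 TPM in ME libraries and was not called (limma adjusted p = 0.248), with L28BME replicate 1 far above the rest. Gfi1, a repressor that acts in granulocyte development, fell (42.2 to 42.7 TPM in L28BME and 63.0 to 64.5 TPM in ME, limma adjusted p = 5.42e-04), as did Tal1 (36.2 to 42.3 TPM in L28BME and 52.9 to 56.8 TPM in ME, limma adjusted p = 0.00939). Bach1, a haem-regulated repressor, and Ikzf1, the lymphoid factor Ikaros, rose. Bach1 was at 39.4 to 43.1 TPM in L28BME and 27.5 to 28.8 TPM in ME (limma adjusted p = 0.00239), and Ikzf1 was at 74.6 to 75.9 TPM in L28BME and 54.4 to 60.5 TPM in ME (limma adjusted p = 0.00763). Zfpm1 and Cebpb also rose (log2 differences 0.55 and 0.45, limma adjusted p = 0.0360 and 0.0275). Xbp1 and Trib1 also fell (log2 differences -0.27 and -0.42, limma adjusted p = 0.0184 and 0.0306). Of the 6 fits without 1 library, Zfpm1, Cebpb and Trib1 stayed called in only 1 each and Xbp1 in 3.

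Of 8 tested receptor genes for the cytokines of these lineages, 1 rose and none was called lower, with 2 lower at an unadjusted p under 0.05. The median log2 difference was -0.041. With 8 genes, 1 call is near the 14.9% of all tested genes that were called. The one that rose was Il7r, the IL-7 receptor chain that also serves TSLP (1.60, 3.14 and 1.76 TPM in L28BME libraries and 0.567, 0.515 and 0.256 TPM in ME libraries, limma adjusted p = 0.0220), and its call was lost without L28BME replicate 3 or any 1 ME library. Of 11 tested genes for packing and releasing granules, 1 rose and 3 fell, with a median log2 difference of 0.026. Lamp1, a granule membrane protein, was the one that rose (487 to 501 TPM in L28BME and 432 to 443 TPM in ME, limma adjusted p = 0.00863). Besides Srgn, the lower genes were Cd63, a tetraspanin of granule membranes (336 to 347 TPM in L28BME and 394 to 427 TPM in ME, limma adjusted p = 0.00793), and Lamp2 (141 to 164 TPM in L28BME and 179 to 190 TPM in ME, limma adjusted p = 0.0259). The call of Lamp2 was kept only without L28BME replicate 3.

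Markers of other cell types also differed between the groups, and their counts stand beside 8.28% of all tested genes called higher and 6.6% lower. Of 7 tested genes of neutrophil primary granules 5 fell and none was called higher, with summed levels of 7129 to 7986 TPM in L28BME and 10200 to 10370 TPM in ME. Of 9 tested genes of later neutrophil granules 6 rose and 1 fell, with sums of 557 to 585 TPM in L28BME and 237 to 247 TPM in ME. Of 10 megakaryocyte genes 7 rose, with sums of 353 to 365 TPM in L28BME and 246 to 248.5 TPM in ME. Of 9 tested monocyte and macrophage genes 2 rose and 5 fell, with sums of 424 to 446.5 TPM in L28BME and 552 to 581 TPM in ME. Of 6 tested dendritic cell genes 1 (Flt3) rose and 4 (H2-Aa, H2-Eb1, H2-Ab1 and Itgax) fell, with sums of 222 to 229 TPM in L28BME and 181 to 199 TPM in ME. Flt3 made up most of the L28BME sum, at 185 to 189 TPM there and 92.6 to 100 TPM in ME. The sum thus lay higher in L28BME although the median log2 difference of the 6 genes was -0.65. Of 5 tested B cell genes 3 rose and none was called lower, with sums of 65.4 to 69.5 TPM in L28BME and 33.0 to 35.4 TPM in ME. Of 6 tested erythroid genes 1 (Tfrc) fell and none was called higher, with sums of 567 to 582 TPM in L28BME and 637 to 650.5 TPM in ME. Tfrc made up most of these sums, at 431 to 438 TPM in L28BME and 503 to 506 TPM in ME, and the median log2 difference was 0.17. No T or NK cell gene passed the filter. Several of these calls did not hold in the fits without 1 library, each of which has fewer samples. Those of Itga2b (megakaryocyte), Ebf1 (B cell) and Csf1r (monocyte) were lost in all 6 fits without 1 library. Those of Mpo, Mmp8, Fcnb, Cd14 and Itgax were kept in only 1 of the 6 fits. The part of these cell types in the results for the 8 genes was not tested.

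The genes next to Prg2 and Prg3 were read after their values were seen. P2rx3, which encodes an ATP-gated ion channel, is the next protein-coding gene beyond Prg3, 4696 bases away on the opposite strand, so that both genes end towards each other. It was at 140, 142 and 132 TPM in L28BME libraries and 30.2, 31.8 and 31.8 TPM in ME libraries (log2 difference 2.11, SE 0.045, limma adjusted p = 1.88e-05). Slc43a3, a purine transporter gene 21951 bases before Prg2 on the same strand, was at 118, 132 and 111 TPM in L28BME libraries and 107, 110 and 103 TPM in ME libraries and was not called (limma adjusted p = 0.171). Along this stretch the log2 difference was therefore 0.16 for Slc43a3, 0.19 for Prg2, 0.83 for Prg3 and 2.11 for P2rx3. Prg3 and P2rx3 share no annotated bases, and whether transcripts run past the annotated ends was not tested.

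**Figure D5:**
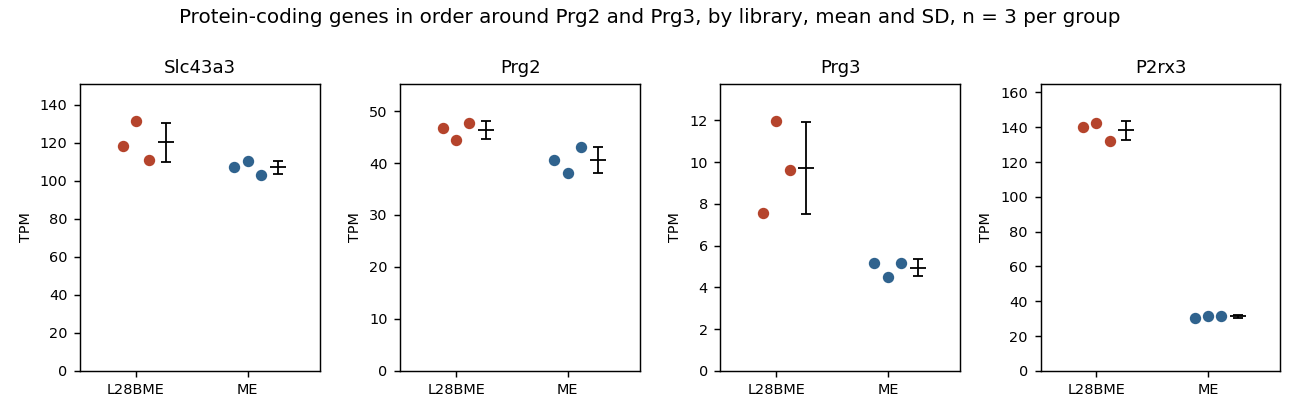
TPM by library (points) with mean and SD, n = 3 per group, of Slc43a3, Prg2, Prg3 and P2rx3, drawn in their order along chromosome 2, each panel with its own axis from 0. The gap between L28BME and ME widens from Slc43a3 and Prg2, which were not called, to Prg3 and P2rx3, which were.

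LIN28B blocks maturation of let-7 microRNAs, so the annotated 3′ untranslated regions of the 8 genes were searched for CTACCTC, the match to bases 2 to 8 of let-7. None of the 8 held it, against 11.3% of 21045 protein-coding genes, and their longest regions were short, at 114 to 416 bases. No match says only that these letters do not occur in those regions.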

How the data were processed

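The authors deposited TPM per gene and library for 3 L28BME and 3 ME samples. Per the submitters' processing notes they used bcl2fastq, HISAT2, StringTie and DESeq2 with GRCm38. Their versions, the annotation release and the strand setting: not given in the sources used here. TPM totals were 999919 to 999996 per library, and depth is unknown.

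The table had 60496 entries, and 431 gene IDs had repeat entries, of which 0 carried values on several entries. Genes with at least 1 TPM in at least 3 of 6 libraries were tested on log2(TPM + 1) with limma 3.58.1 (R 4.3.3), with an intensity trend, two-sided, and called at a Benjamini-Hochberg adjusted p under 0.05. The pseudocount understates changes of low genes. The procedure was run on simulated data with normal errors of the size fitted here, so the simulation does not test whether real errors follow the model. Genes of low abundance were not changed in it, so it does not cover them. Positions and transcripts came from GENCODE M21, promoters and microRNAs from RefSeq. Alignments used Biopython 1.88.

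All 8 members, the list genes called (at most 4 per list by smallest p, but all called transcription factors) and a set of defining genes are named. The members and lists were chosen with earlier results of these data known. Some lists share members. Alternatives were other pseudocounts, filters, scalings, limma options, a replicate block, leaving out each library, and summed paralogs. Equal replicate numbers were not treated as pairs.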

Additional observations from a re-analysis of the deposited data

How the results depend on the processing

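Under other pseudocounts, filters, scalings and limma options without a minimum change, Epx and Prg3 stayed called and no other member was called; no result changed sign. Against a minimum change of 1.2-fold, limma called 245 genes higher and 144 lower and 0 members, with Epx at a log2 difference of 0.46 (adjusted p = 0.1) and Prg3 at 0.83 (adjusted p = 0.144). With a replicate block, 548 genes were higher and 400 lower and 1 member was higher, with Prg3 at 0.83 (limma adjusted p = 0.0766); libraries of the same number did not deviate together (r = -0.032, -0.074 and -0.052), so the numbers were not treated as pairs. Without 1 library each, 617 to 693 genes were higher and 461 to 582 lower, and 1 to 2 members were higher and 0 to 1 lower. The log2 differences then were 0.44 to 0.48 for Epx, 0.14 to 0.23 for Prg2, 0.68 to 0.98 for Prg3, -0.49 to -0.12 for Ear2, 0.26 to 0.45 for Ear6, 0.086 to 0.13 for Hdc and -0.80 to -0.50 for Fcer1a. Genes called higher then numbered 0 to 2 in the ribonuclease list, 0 to 1 in the basophil and receptor lists and 2 to 4 among transcription factors. Genes called lower numbered 1 to 2 in the IgE receptor list, 0 to 1 in the histamine and receptor lists, 2 to 4 in the basophil list, 1 to 4 in the mast cell list and 2 to 3 among transcription factors. Each such fit has fewer samples; the cause of other shifts was not tested. TPM hold no read depth, so the error of the low Ear1 and Ear2 values is unknown.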

Other observations

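For the 5 tested genes with a mean of at least 5 TPM, the 2 genes with the most similar pattern over the 6 libraries were sought among tested genes of at least 5 TPM, by the largest gap between centred log2(TPM + 1) values in any library. Epx was closest to Vamp4, a vesicle fusion protein gene (largest gap 0.0261), and Tyrobp, the adaptor DAP12 (0.0349). Both rose in L28BME, Vamp4 to 42.2 ± 1.60 TPM against 30.0 ± 0.936 TPM in ME, and Tyrobp to 705 ± 9.79 TPM against 502 ± 8.41 TPM in ME (SD, n = 3 each). Prg2 was closest to Hira, a histone chaperone gene (0.0212), and Grk6 (0.0384), and Hdc to Mllt1, the mouse ENL gene (0.0238), and Plekhb2 (0.0241), none of which was called. The gaps were wider for Prg3, at 0.189 to Filip1l and 0.206 to Cdc34, a ubiquitin-conjugating enzyme gene, both of which rose. For Fcer1a they were 0.18 to Fbxo4, which was not called, and 0.182 to Il11ra1, an IL-11 receptor gene, which was called lower (limma adjusted p = 0.0338). The likeness rests largely on the difference between the groups and is a description.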
